A study of Mus musculus with 30 samples.

Results

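The 10 genes described here (Nkd1, Nkd2, Notum, Rnf43, Znrf3, Tnfrsf19, Apcdd1, Ccnd1, Myc and Cd44) are targets and feedback regulators of canonical Wnt signalling, chosen by name, and all 10 were found by gene symbol among the 35120 genes of a mouse white fat RNA-seq count table. The study compared mice labelled as lacking β-catenin in fat cells (Ctnnb1AdKO) with Ctnnb1fl/fl mice of matched sex and age. Of isolated adipocytes there were 5 knockout-labelled and 6 control libraries from males, and 6 knockout-labelled and 6 control libraries from females. Of stromal-vascular cells (SVC), the cells pelleted after collagenase digestion, there were 4 knockout-labelled and 3 control libraries, all from males. Neither the promoter behind the deletion, nor the exons removed, nor the age of the mice is given in the labels, and all groups share floxed Ctnnb1 alleles and are told apart only as Ctnnb1KO or Ctnnb1flfl. The labels name epididymal and posterior subcutaneous fat for every library, females included, and do not state that each replicate number is a separate mouse, so p-values measure the spread between libraries.

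In canonical Wnt signalling, a Wnt ligand bound to a Frizzled receptor and its co-receptor acts through Dishevelled to spare β-catenin from degradation, and β-catenin then activates genes with TCF/LEF factors. Several of these genes encode proteins that turn the same pathway down: Nkd1 and Nkd2 bind Dishevelled, Notum removes the lipid from Wnt ligands, Rnf43 and Znrf3 clear Frizzled receptors from the cell surface, and Apcdd1 is a membrane-bound Wnt inhibitor. In fat, Wnt signalling is best known for holding preadipocytes back from becoming adipocytes.

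Depth was even, from 20484836 to 22209603 counts in a library. Ctnnb1 itself was not lower under the knockout label. Its log2 fold change, knockout-labelled over control, was -0.03 in male adipocytes, 0.11 in female adipocytes and 0.08 in SVC, and the adjusted p-values of edgeR's quasi-likelihood test were 0.919, 0.670 and 0.979. Because the deleted exons are not named, a count over the whole gene could not check the genotype label. Summed over 8 adipocyte markers (Adipoq, Plin1 and others), the level was 26430 to 49570 counts per 1000000 counts of the library (CPM) in adipocyte libraries and far lower in SVC, at 1525 to 2057 CPM in knockout-labelled and 890 to 1396 CPM in control libraries. Adipocyte libraries also held RNA of other cell types, with 10 macrophage markers at 67.1 to 972 CPM and 10 progenitor and fibroblast markers at 231 to 770 CPM in sum. In bulk RNA, fewer cells of a type and less RNA per cell cannot be told apart.

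Promoter sequences are shown for 3 genes that the results return to: Nkd1, Tnfrsf19 and Rnf43. Nkd1 was higher in female than in male control adipocytes. Tnfrsf19 had few counts in male adipocytes and is given no test between sexes, and Rnf43 was nearly absent from adipocytes. Each window runs 5′ to 3′ on the gene's strand over 300 bases, from 250 before to 50 after the RefSeq start, in build GRCm38.p6. Capitals mark a match to the TCF/LEF motif, searched on both strands as CAAAG after any pair of letters that are each A or T. Nkd1 lies at chr8:88527383-88527682 on the plus strand, Rnf43 at chr11:87662837-87663136 on the plus strand, and Tnfrsf19 has annotated starts at chr14:61046806-61047105 and chr14:61037938-61038237, both on the minus strand.
Nkd1: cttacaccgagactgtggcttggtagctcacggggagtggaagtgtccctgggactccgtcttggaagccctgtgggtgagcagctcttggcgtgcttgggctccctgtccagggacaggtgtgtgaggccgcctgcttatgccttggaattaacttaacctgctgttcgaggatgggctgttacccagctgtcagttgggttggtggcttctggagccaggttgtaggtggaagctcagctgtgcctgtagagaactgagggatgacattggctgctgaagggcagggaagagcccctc
Rnf43: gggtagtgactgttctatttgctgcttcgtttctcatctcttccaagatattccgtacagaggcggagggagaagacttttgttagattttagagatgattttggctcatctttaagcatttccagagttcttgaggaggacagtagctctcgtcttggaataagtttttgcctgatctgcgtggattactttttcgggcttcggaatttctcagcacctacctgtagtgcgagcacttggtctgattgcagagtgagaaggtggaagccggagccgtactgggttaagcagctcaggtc
Tnfrsf19 first start: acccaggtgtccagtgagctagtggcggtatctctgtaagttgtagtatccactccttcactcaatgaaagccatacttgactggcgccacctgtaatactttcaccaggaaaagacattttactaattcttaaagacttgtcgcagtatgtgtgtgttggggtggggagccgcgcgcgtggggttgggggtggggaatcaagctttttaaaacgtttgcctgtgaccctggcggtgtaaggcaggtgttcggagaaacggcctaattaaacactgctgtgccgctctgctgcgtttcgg
Tnfrsf19 second start: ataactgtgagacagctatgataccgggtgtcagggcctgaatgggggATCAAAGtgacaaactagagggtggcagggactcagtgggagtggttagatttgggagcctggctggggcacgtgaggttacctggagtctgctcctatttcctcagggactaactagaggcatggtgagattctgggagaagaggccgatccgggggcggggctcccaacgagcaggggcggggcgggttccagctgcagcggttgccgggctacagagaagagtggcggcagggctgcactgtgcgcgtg
Of these windows, the one at the second Tnfrsf19 start held a match, ATCAAAG, whose first base is at -202 from the start. A match was present in 5544 of 32851 promoter windows of this length (16.9%). No match was found in the windows of Nkd2, Cd44 or the other Rnf43 start. A match is a run of letters and says nothing by itself about binding, and its absence says only that these letters are not in the window.

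Among the 7 genes with enough counts to test in adipocytes, 0 passed an adjusted p of 0.05 between knockout-labelled and control libraries in males, in females or in the mean effect of both sexes. The backgrounds were low: 0.0703% of 14227 genes were called in males, 0.471% in females and 0.759% in the mean effect. At an unadjusted p below 0.05 the 7 genes gave 0 in males, 1 in females (Myc, lower) and 0 in the mean effect, against 13.1%, 10.3% and 15% of all genes. Their median log2 fold change was 0.16 in males, with 0.02 over all genes, and -0.21 in females, with 0.01 over all genes. Nkd2, Notum and Rnf43 fell below the filter on low counts in adipocytes.

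**Figure D1:**
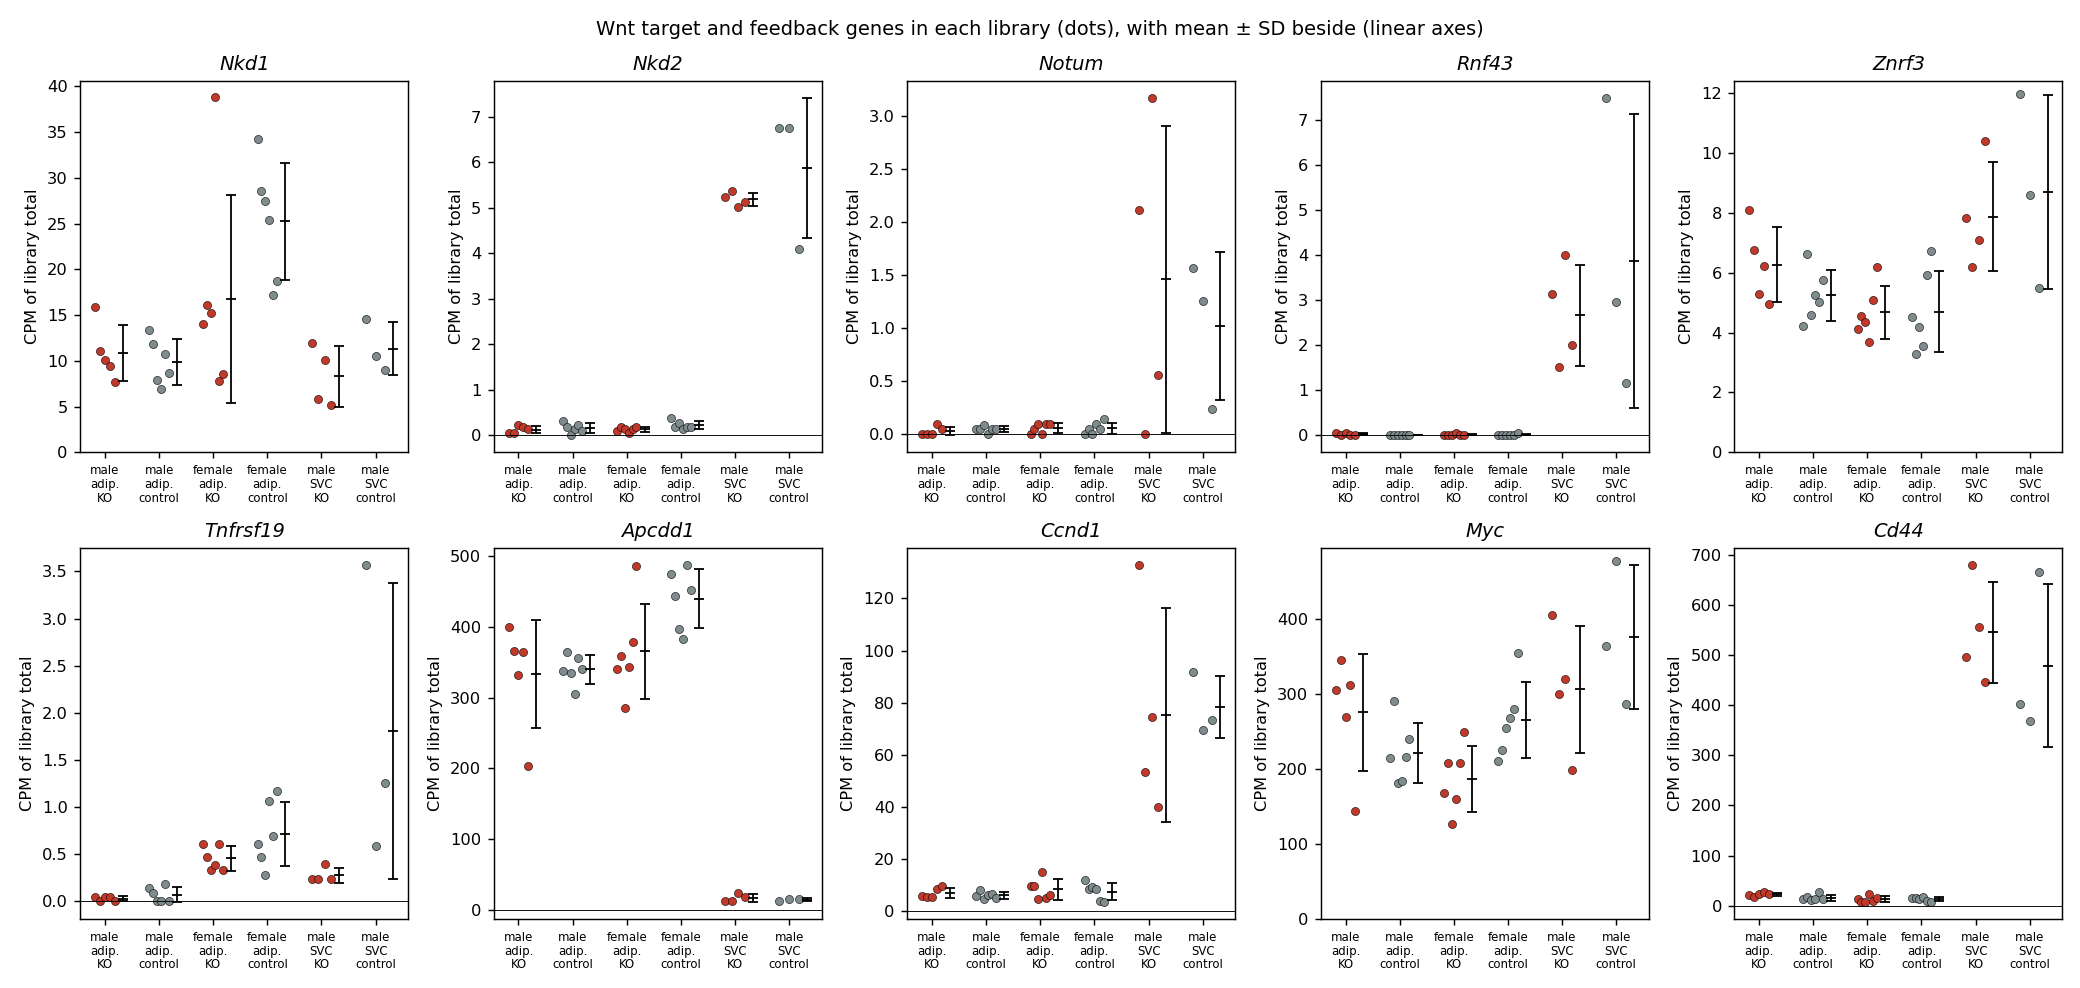
CPM of the library total (linear axes) for each of the 10 genes in every library, with knockout-labelled libraries in red and control libraries in grey, and the mean ± SD beside each group. Nkd2, Rnf43, Ccnd1 and Cd44 sit near the axis in adipocytes and far above it in SVC, Apcdd1 does the reverse, and 1 female knockout-labelled library stands apart for Nkd1 at 38.9 CPM.

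Nkd1, an inducible feedback inhibitor that binds Dishevelled, measured 14.1, 16.1, 15.2, 38.9, 7.80 and 8.58 CPM in the 6 knockout-labelled female adipocyte libraries, against 34.2, 28.5, 27.5, 25.4, 17.2 and 18.8 CPM in the 6 control libraries. Of the knockout-labelled libraries, 5 lay below every control and replicate 4 lay above every control. The share of all genes with libraries outside the other group in this way was not counted, here or for Apcdd1, Myc and Cd44 below. The model gave a log2 fold change of -0.54 (SE 0.27), with an unadjusted p of 0.0616 and an adjusted p of 0.505. Each library was left out in turn, and the fit without knockout-labelled replicate 4 gave -0.93, with an adjusted p of 0.0530. That fit removes the library that ran against the rest, so its value is a selected one. The same library had the highest sum of progenitor and fibroblast markers in its group, at 770 CPM. The other 5 lay between 260 and 563 CPM. Replicate 4 was also the highest of its group for mural (517 CPM), endothelial (555 CPM) and mesothelial markers (18.5 CPM). For macrophage markers it was not the highest (221 CPM, against 277 CPM in replicate 6). The part of these cell types in the result was not tested.

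In male adipocytes Nkd1 was similar under both labels. It measured 15.9, 11.1, 10.1, 9.44 and 7.67 CPM in knockout-labelled libraries, against 13.4, 11.9, 7.93, 6.89, 10.7 and 8.68 CPM in controls, with wide overlap. Their log2 fold change was 0.09 (SE 0.29, adjusted p = 0.930). The difference between the sexes in the genotype effect, females minus males, was -0.63 (SE 0.40, adjusted p = 0.688). Over all genes 0.0141% were called for such a difference and 8.87% had an unadjusted p below 0.05, where 0 of the 7 genes were called and 1, Myc, had such a p.

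Nkd2, the second Naked protein, was near the limit of detection in adipocytes. It had 1 to 5 counts per library in knockout-labelled males, against 0 to 7 in control males, and 1 to 4 in knockout-labelled females, against 3 to 8 in control females. In females it averaged 0.133 ± 0.0546 CPM in knockout-labelled libraries and 0.225 ± 0.0865 CPM in controls (SD, n = 6 each; exact two-sided permutation p = 0.0736). Notum, the secreted Wnt deacylase, had 0 to 2 counts per library in knockout-labelled males and 0 to 2 in control males, and 0 to 2 in knockout-labelled females and 0 to 3 in control females. Rnf43, a ubiquitin ligase that removes Frizzled, had 4 counts over all 23 adipocyte libraries, in 4 libraries of 1 count each. At this depth no genotype difference in Notum or Rnf43 was detectable in adipocytes (exact two-sided permutation p = 0.567 and 0.364 in males, 0.805 and 1.0 in females). For Rnf43 no split of these counts over the libraries could give a p below 0.364 in males or 0.455 in females, so its test could not reach 0.05.

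Znrf3, the partner of Rnf43 in clearing Frizzled, was readily measured in both fractions. It ranged from 4.97 to 8.09 CPM in knockout-labelled male adipocytes, against 4.21 to 6.62 CPM in controls, and from 3.70 to 6.20 CPM in knockout-labelled females, against 3.27 to 6.71 CPM in controls. The groups overlapped in both sexes. Male libraries gave a log2 fold change of 0.22 (SE 0.19, adjusted p = 0.653), and female libraries one of 0.05 (SE 0.18, adjusted p = 0.958).

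Apcdd1, a Wnt inhibitor at the cell surface, was among the most abundant of the 10 genes in adipocytes. Knockout-labelled female libraries held 340, 359, 286, 344, 378 and 486 CPM, against 476, 444, 397, 383, 488 and 453 CPM in controls. On the library total 5 of 6 knockout-labelled libraries lay below every control, and with TMM-scaled CPM, the scaling that the model uses, 2 of 6 did. In the model it was -0.21 on the log2 scale (SE 0.13, adjusted p = 0.620).

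In males Apcdd1 measured 400, 367, 332, 365 and 204 CPM in knockout-labelled libraries, against 338, 365, 335, 305, 357 and 341 CPM in controls. Knockout-labelled replicate 5 stood far below the rest, and it was also the lowest of its group for Myc (144 CPM) and for the sum of adipocyte markers (27600 CPM). For the full groups the log2 fold change was -0.07 (SE 0.14, adjusted p = 0.873), and 0.06 without that library. Tnfrsf19, a receptor of the tumour necrosis factor family also called Troy, had 0 or 1 count per library in knockout-labelled males and 0 to 4 in control males, and averaged 0.454 ± 0.130 CPM in knockout-labelled females and 0.712 ± 0.343 CPM in control females (SD, n = 6 each). With so few counts, its log2 fold change in males was -1.19 (SE 0.92, adjusted p = 0.601), and in females it was -0.57 (SE 0.39, adjusted p = 0.658). Mesothelial markers, from the lining of the fat pad's surface, were lower in the same comparison, with 3 of 8 called in the mean effect of both sexes. They summed to 5.597 to 25.1 CPM in knockout-labelled males, against 15.7 to 111 CPM in control males, and to 8.12 to 18.5 CPM in knockout-labelled females, against 9.25 to 59.7 CPM in control females. Their median log2 fold change was -1.53 in males and -1.45 in females, and their part in the results for Nkd1, Tnfrsf19, Axin2 or Cdk6 was not tested.

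Myc, a growth-promoting transcription factor and the most abundant of the 10 genes per kilobase of exon in all 6 groups, moved in different directions in the sexes without passing the test. Female knockout-labelled libraries held 168, 208, 126, 160, 208 and 248.5 CPM, against 210, 225, 255, 267, 280 and 354.2 CPM in controls. All 6 knockout-labelled libraries lay below the control mean. On the library total 5 of 6 lay below every control, and with TMM-scaled CPM 3 of 6 did. The log2 fold change was -0.45 (SE 0.18), with an unadjusted p of 0.0231 and an adjusted p of 0.380.

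Male knockout-labelled libraries held 305, 345, 269, 312 and 144 CPM of Myc, against 215, 290, 182, 184, 215 and 240 CPM in controls. Here 3 of 5 lay above every control and replicate 5 lay below every control. The log2 fold change was 0.28 (SE 0.19, adjusted p = 0.552), and 0.44 without replicate 5 (adjusted p = 0.154). Replicate 5 ran against the rest, so the second value is a selected one. The effect in females minus that in males was -0.73 (SE 0.27), with an unadjusted p of 0.0116 and an adjusted p of 0.433. In females the summed macrophage markers were also lower, at 67.1 to 277 CPM in knockout-labelled libraries and 217 to 500 CPM in controls, and their part in the result was not tested.

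Ccnd1 encodes cyclin D1, which drives entry into the cell cycle. It ranged from 5.30 to 9.62 CPM in knockout-labelled male adipocytes, against 4.73 to 8.12 CPM in controls, and from 4.65 to 15.2 CPM in knockout-labelled females, against 3.49 to 11.9 CPM in controls. Neither sex separated the labels (in males the log2 fold change was 0.16 with SE 0.29 and adjusted p = 0.855; in females it was 0.23 with SE 0.27 and adjusted p = 0.835).

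Cd44, a receptor for the matrix polymer hyaluronan, measured 21.7, 17.7, 22.9, 27.6 and 22.6 CPM in knockout-labelled male adipocytes, against 13.7, 16.7, 10.5, 12.96, 26.4 and 14.3 CPM in controls. All 5 knockout-labelled libraries exceeded the control mean, and 5 of 6 controls lay below every knockout-labelled library. The log2 fold change was 0.48 (SE 0.24), with an unadjusted p of 0.0586 and an adjusted p of 0.40. In females Cd44 averaged 12.7 ± 5.69 CPM in knockout-labelled libraries and 13.02 ± 3.95 CPM in controls (SD, n = 6 each), and the log2 fold change was 0.03 (SE 0.23, adjusted p = 0.983).

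**Figure D2:**
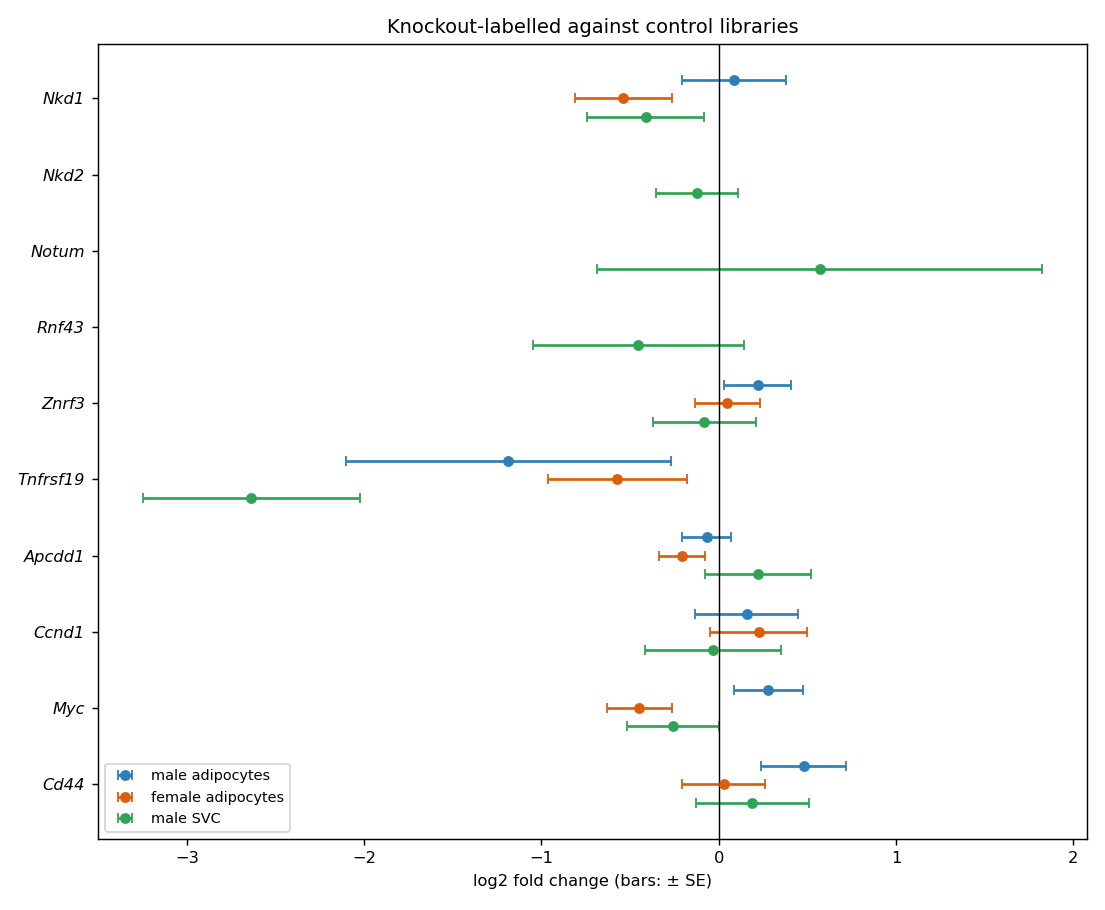
Log2 fold change, knockout-labelled over control, with bars of ± SE, in male adipocytes (blue), female adipocytes (orange) and male SVC (green). Nkd2, Notum and Rnf43 were below the filter in adipocytes, and Tnfrsf19 in SVC lies farthest from 0 at -2.64.

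In SVC, where all 10 genes could be tested, 0 were called, as were 0% of 16404 genes. At an unadjusted p below 0.05 there was 1 of the 10, against 2.62% of all genes, and DESeq2 called 1 of the 10 and 76 genes in all. That gene was Tnfrsf19, with 0.230, 0.236, 0.391 and 0.233 CPM (5 to 8 counts) in knockout-labelled libraries, against 3.57, 0.580 and 1.26 CPM (12 to 75 counts) in controls. Every knockout-labelled library lay below every control, for which the exact two-sided permutation p of 0.0571 is the smallest that 4 against 3 libraries can give. The share of all genes separated in this way was not counted. The log2 fold change was -2.64 (SE 0.61), with an unadjusted p of 0.00353 and an adjusted p of 0.968 in edgeR, and an adjusted p of 0.0236 in DESeq2. Without control replicate 1, the highest library, it was -1.80.

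Summed markers of mesothelial cells and adipocytes separated the SVC groups too. Sums for the other cell types examined overlapped. Macrophage markers stood at 5677 to 9933 CPM in knockout-labelled SVC, against 5220 to 9840 CPM in controls. Progenitor and fibroblast markers stood at 6150 to 8499 CPM, against 8283 to 10800 CPM, and endothelial and mural markers overlapped as well. How many of all genes separated these groups was not counted. The 8 mesothelial markers summed to 110 to 156 CPM in knockout-labelled SVC and 275 to 575 CPM in controls, with no marker at 0 in any library and no overlap between the groups. Their median log2 fold change was -2.36, where all genes had 0.04. The 8 adipocyte markers went the other way without overlap, at 1525 to 2057 CPM in knockout-labelled SVC and 890 to 1396 CPM in controls, with a median log2 fold change of 1.19. At an unadjusted p below 0.05 there were 6 of the 8 mesothelial and 0 of the 8 adipocyte markers, and 0 of either were called. The part of these cells in the Tnfrsf19 and other SVC results was not tested.

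The other genes did not separate the labels in SVC. Nkd1 ranged from 5.22 to 12.0 CPM in knockout-labelled libraries, against 8.98 to 14.6 CPM in controls (log2 fold change -0.41, SE 0.33, adjusted p = 0.968). Notum varied most between libraries, with 46, 0, 65 and 12 counts in knockout-labelled libraries, against 33, 26 and 5 counts in controls. Rnf43 ranged from 1.51 to 4.00 CPM in knockout-labelled libraries, against 1.16 to 7.48 CPM in controls. Myc averaged 306 ± 85.1 CPM in knockout-labelled SVC (SD, n = 4) and 376 ± 95.8 CPM in controls (SD, n = 3), with a log2 fold change of -0.26 (SE 0.26, adjusted p = 0.968).

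Nkd2 lay in a narrow range in knockout-labelled SVC, at 5.24, 5.37, 5.03 and 5.13 CPM, against 6.77, 6.77 and 4.09 CPM in controls, with the controls on both sides (log2 fold change -0.12, SE 0.23, adjusted p = 0.971). Znrf3 measured 7.81, 6.17, 7.08 and 10.4 CPM in knockout-labelled SVC, against 12.0, 8.61 and 5.49 CPM in controls, and Apcdd1 12.4, 12.1, 24.0 and 18.4 CPM against 12.1, 15.2 and 16.1 CPM. Both overlapped, with log2 fold changes of -0.08 (SE 0.29, adjusted p = 0.980) and 0.22 (SE 0.30, adjusted p = 0.968). Ccnd1 spread more widely under the knockout label, at 133, 53.6, 74.5 and 40.0 CPM, against 91.9, 69.7 and 73.3 CPM in controls (log2 fold change -0.03, SE 0.38, adjusted p = 0.994). Cd44 stood at 497, 681, 557 and 447 CPM in knockout-labelled SVC, against 402.5, 369 and 666 CPM in controls (log2 fold change 0.19, SE 0.32, adjusted p = 0.968), again with overlap. The genotype effect in SVC minus that in male adipocytes was called for 0 of the 10 genes and for 0% of 17251 genes, with 6.66% of all genes and 0 of the 10 at an unadjusted p below 0.05.

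The fractions differed far more than the genotypes. In controls, 77.1% of 17251 genes were called between SVC and adipocytes, 44.2% higher in SVC and 32.8% lower, and in knockout-labelled mice 76.5% were called, 44.7% higher and 31.8% lower. Of the 6 genes with enough counts in male adipocytes, 2 were higher in SVC under both labels (Ccnd1 and Cd44), while lower were 2 under the knockout label (Apcdd1 and Nkd1) and 1 in controls (Apcdd1). The median of all genes was itself 0.29 on the log2 scale in these comparisons. Nkd2, Notum, Rnf43 and Tnfrsf19 had at most 7 counts in any male adipocyte library and passed the filter only through SVC, so they had to come out higher there. They are given by pooled counts with no test.

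Cd44 had 447 to 681 CPM in knockout-labelled SVC, against 17.7 to 27.6 CPM in knockout-labelled adipocytes, and 369 to 666 CPM in control SVC, against 10.5 to 26.4 CPM in control adipocytes. The groups were far apart, at log2 4.17 (SE 0.28, adjusted p = 8.63e-10) under the knockout label and 4.43 (SE 0.27, adjusted p = 3.02e-10) in controls. Ccnd1 was higher in SVC by log2 3.00 (SE 0.30, adjusted p = 9.88e-08) under the knockout label and by 3.14 (SE 0.30, adjusted p = 4.62e-08) in controls. Ccnd1 exons overlap an antisense gene over 1100 of 4709 bases, and because the strand setting of the counting is not given, reads of the pair cannot be told apart.

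Among the negative regulators, Rnf43, Nkd2 and Notum entered these comparisons only through SVC, so their direction was fixed by the filter. Rnf43 had 225 counts over the knockout-labelled SVC libraries and 2 over the knockout-labelled adipocyte libraries, a CPM ratio of 146 (95% interval 39.9 to 1210, counting error only). In controls it had 243 counts in SVC and 0 in adipocytes, which made it at least 170-fold higher in SVC against a floor of 3 counts over the group. With TMM-scaled library sizes these values were 108 and at least 117-fold. Nkd2 had 441 counts in knockout-labelled SVC and 14 in knockout-labelled adipocytes, a CPM ratio of 40.8 (95% interval 24.1 to 75.2), and 370 in control SVC and 21 in control adipocytes, a ratio of 37.0 (23.8 to 60.5). Notum had 123 and 3 counts under the knockout label, a ratio of 53.1 (17.8 to 261), and 64 and 6 in controls, a ratio of 22.4 (9.74 to 63.3). Its exons overlap antisense genes over 918 of 2408 bases. With TMM-scaled library sizes the Nkd2 ratios were 30.1 under the knockout label and 25.4 in controls. The Notum ratios were then 39.2 and 15.4. The intervals above leave out the spread between libraries and are no test of direction, which the filter fixed. Rnf43 had 25 to 157 counts per control SVC library, and Notum had 0 to 65 per knockout-labelled SVC library.

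Apcdd1 ran the other way. It measured 12.1 to 24.0 CPM in knockout-labelled SVC, against 204 to 400 CPM in knockout-labelled adipocytes, and 12.1 to 16.1 CPM in control SVC, against 305 to 365 CPM in control adipocytes. The log2 difference was -4.77 (SE 0.25, adjusted p = 3.97e-11) under the knockout label and -5.08 (SE 0.28, adjusted p = 8.70e-11) in controls. Nkd1 was lower in SVC under the knockout label, by log2 -0.81 (SE 0.27, adjusted p = 0.0119), and in controls the value was -0.36 (SE 0.29, adjusted p = 0.250). With a block for the knockout-labelled libraries that share a number across fractions, the Nkd1 value was -0.51 with an adjusted p of 0.172. Tnfrsf19 had 23 counts in knockout-labelled SVC and 3 in knockout-labelled adipocytes, a CPM ratio of 9.93 (3.00 to 51.7), and 114 in control SVC and 9 in control adipocytes, a ratio of 26.6 (13.5 to 59.6). Of the 114 counts, SVC control replicate 1 held 75. With TMM-scaled library sizes the Tnfrsf19 ratios were 7.32 under the knockout label and 18.3 in controls.

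Myc and Znrf3 did not pass the test between fractions. Myc was at -0.27 (SE 0.24, adjusted p = 0.308) under the knockout label and 0.21 (SE 0.25, adjusted p = 0.442) in controls, and Znrf3 at -0.13 (SE 0.20, adjusted p = 0.569) and 0.15 (SE 0.21, adjusted p = 0.508).

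**Figure D3:**
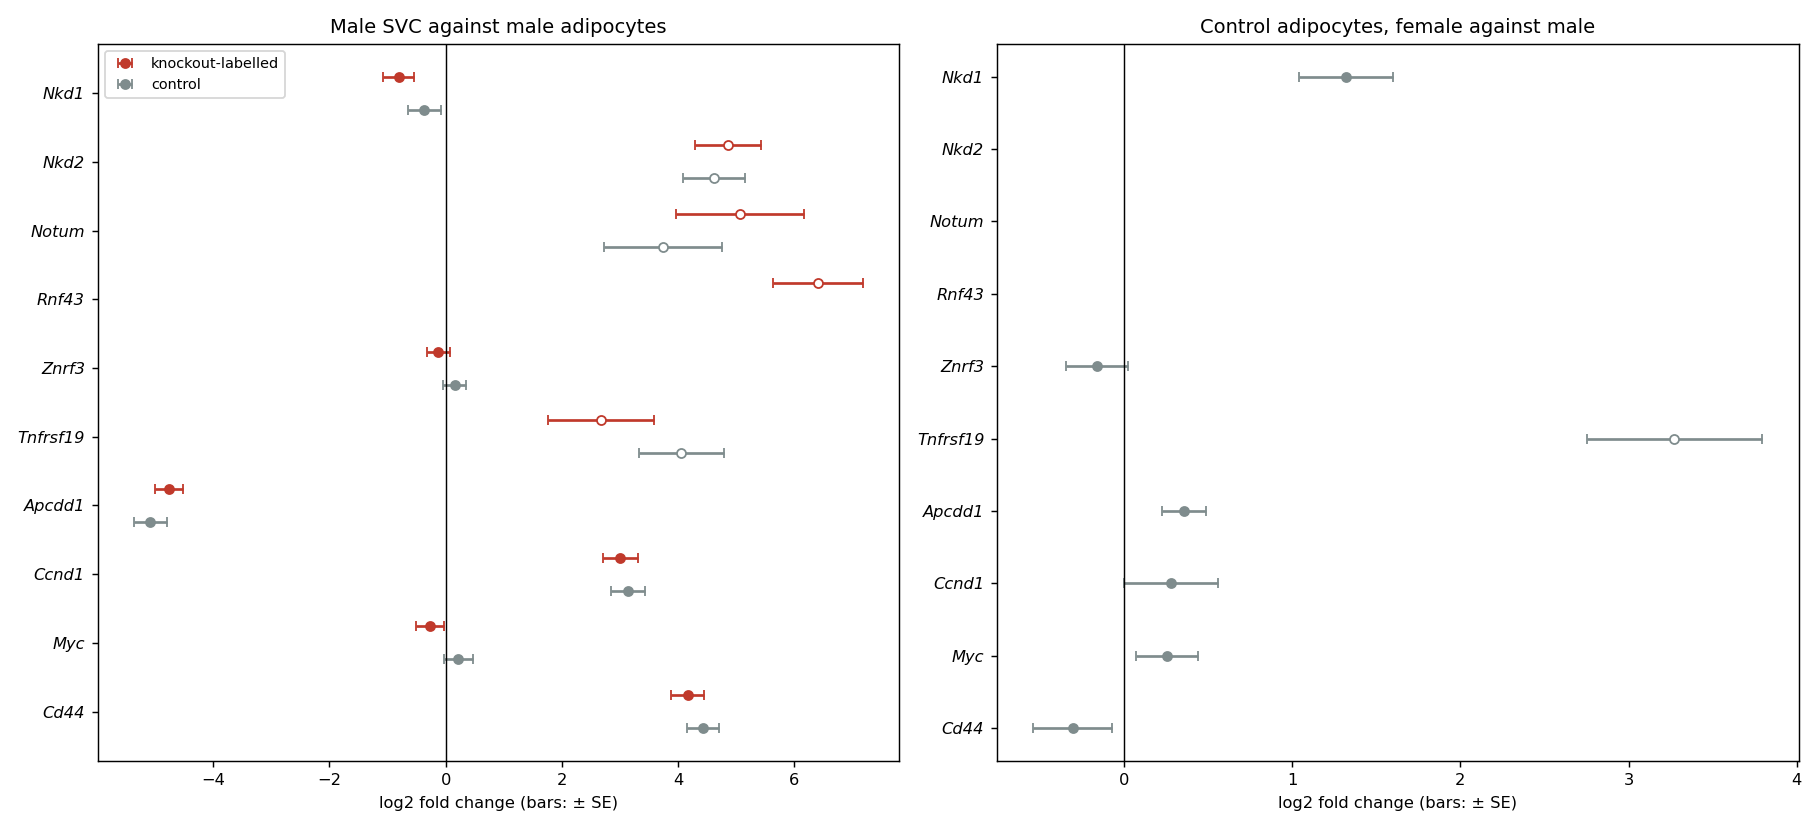
Left, log2 fold change of male SVC over male adipocytes in knockout-labelled (red) and control (grey) libraries. Right, log2 fold change of female over male control adipocytes. Bars are ± SE. Open circles mark genes with so few counts in the lower group that they passed the filter only through the higher one. Rnf43 in controls is not drawn because all 6 control male adipocyte libraries hold 0 counts, and genes below the filter have no point on the right. Apcdd1 is the 1 gene far below 0 on the left. On the right, Nkd1 lies farthest right of the filled points. Tnfrsf19 lies beyond it as an open circle whose direction was fixed by the filter.

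Per kilobase of exon, the order of mean levels in control male adipocytes was Myc at 81.4 CPM per kb, Apcdd1 at 26.4, Cd44 at 2.33, Nkd1 at 2.18, Ccnd1 at 1.30 and Znrf3 at 0.664, with Nkd2, Notum, Tnfrsf19 and Rnf43 below 0.04. Cd44 and Nkd1 are neighbours whose SDs (0.822 and 0.551) exceed their difference. In control SVC the order was Myc at 138 CPM per kb, Cd44 at 70.7, Ccnd1 at 16.6, Nkd1 at 2.49, Nkd2 at 1.22, Apcdd1 at 1.12 and Znrf3 at 1.10. The last 3 of these lie within an SD of each other. Apcdd1 thus ranked second in control adipocytes and sixth in control SVC.

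Female and male control adipocytes also differed, with 43.8% of all genes called, 23.7% higher in females and 20.1% lower. Of the 6 genes with enough counts in both sexes, 2 were higher in females and 0 lower. Nkd1 was higher in females, at 25.3 ± 6.39 CPM against 9.93 ± 2.51 CPM in males (SD, n = 6 each), a log2 difference of 1.32 (SE 0.28, adjusted p = 0.000642), and every female control lay above every male control. How many of all genes separated the sexes as Nkd1 did was not counted. Tnfrsf19 had 13, 10, 6, 23, 15 and 25 counts in female controls, against 3, 2, 0, 0, 4 and 0 in male controls. It passed the filter only through the female libraries, so its direction was fixed by the filter and no test is given. The pooled CPM ratio was 10.5 (95% interval 5.29 to 23.7). That interval covers counting error only and is no test of direction. Apcdd1 was higher at 440 ± 42.1 CPM in females against 340 ± 20.6 CPM in males (SD, n = 6 each; log2 0.36, SE 0.13, adjusted p = 0.0299), a call that some other fits lost. Progenitor and fibroblast markers were higher in female controls in 6 of 10 cases and macrophage markers lower in 6 of 10, and their part in these results was not tested.

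Other genes of the pathway gave few genotype calls, as did all genes. Of 34 other Wnt target and feedback genes, 22 were tested in adipocytes. By edgeR 0 were called in males, in females or in the mean effect, against 0.0703%, 0.471% and 0.759% of all genes. At an unadjusted p below 0.05 there were 3 in males, 4 in females and 4 in the mean, against 13.1%, 10.3% and 15% of all genes. The medians were 0.03 in males, -0.01 in females and 0.07 in the mean. Axin2, the scaffold of the β-catenin destruction complex and a standard transcriptional read-out of the pathway, had the smallest p of the list in females. It measured 5.06, 8.42, 8.40, 5.78, 3.55 and 5.32 CPM in knockout-labelled females, against 10.7, 13.4, 6.502, 7.83, 14.7 and 13.6 CPM in controls (log2 -0.81, SE 0.24, unadjusted p = 0.00282, adjusted p = 0.162). All 6 lay below the control mean, and in the mean of both sexes the value was -0.65 (SE 0.17, adjusted p = 0.0816 in edgeR and 0.0159 in DESeq2). In males Ephb2, an ephrin receptor, had the smallest p (0.48, SE 0.16, adjusted p = 0.207).

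Among R-spondins and their receptors, which protect Frizzled from Rnf43 and Znrf3, 3 genes were tested in adipocytes and none called. Rspo1 had the smallest p, with males at -1.12 (SE 0.43, adjusted p = 0.269), females at -0.81 (SE 0.40, adjusted p = 0.488) and SVC at -0.84 (SE 0.22, unadjusted p = 0.00675, adjusted p = 0.968). Of the 3 Dishevelled genes, the partners of Nkd1 and Nkd2, none was called by genotype, and Dvl2 was at -0.30 (SE 0.14, adjusted p = 0.440) in females. Of 9 D-type cyclins and partners, Ccnd1 included, Cdk6, a kinase that pairs with cyclin D1, fell in the mean effect (log2 -0.80, SE 0.19, adjusted p = 0.0439), and 0 were called in either sex alone. That call was lost in 17 of 29 alternative fits, with adjusted p-values up to 0.106. Of 9 tested genes of the Myc network, Myc included, and 8 tested Cd44 ligands and partners, 0 were called by genotype in adipocytes. Spp1, a Cd44 ligand made by macrophages, was at 1.42 in males (SE 0.39, adjusted p = 0.142), and Lyve1, a hyaluronan receptor, at -1.13 in females (SE 0.28, adjusted p = 0.0688). In the same female libraries all 10 macrophage markers were lower at an unadjusted p below 0.05, with a median of -0.95 and 1 called, and their part in the Lyve1 value was not tested.

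In SVC against adipocytes most genes of any kind were called, so counts for the lists stand beside 44.2% of all genes higher and 32.8% lower in controls. There 20 of 29 tested other Wnt targets were higher and 7 lower. In adipocytes alone 22 of the list passed the filter. The 29 therefore include genes that entered through SVC, and the filter itself raises the count of higher genes. Tcf7, a Wnt transcription factor, was not among the 22, so no test is given for it. Of the 9 Cd44 ligands and partners, 8 were higher and 0 lower, and of the 3 Dishevelled genes 1 was higher and 1 lower. Hmmr, among these Cd44 partners, was not tested in adipocytes alone, so it too entered through SVC. The first of the Cd44 partners was the hyaluronan synthase Has2 at 7.96 (SE 0.36, adjusted p = 1.10e-11). In control adipocytes Has2 was higher in females than in males, by log2 2.47. Its counts per male library were not examined, so it may have entered the male fit only through SVC, with its direction fixed. Between sexes in control adipocytes, 4 of 22 other Wnt targets were higher in females and 1 lower, both shares below the 23.7% and 20.1% of all genes, with Ephb2 at 0.91 (SE 0.15, adjusted p = 5.82e-05). Rspo3 was lower in females at -3.79 (SE 0.52, adjusted p = 5.49e-06). Its counts per library were not examined, so it may have passed the filter only through males.

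Across the 23 adipocyte libraries, 2 of 40 relations between the 10 genes and 4 measures had a Pearson r with an adjusted p below 0.05, after the mean of each group was removed. Values were log2 CPM with the TMM scaling of the model. The measures were Axin2 and the mean log2 CPM of the macrophage, progenitor and fibroblast, and mesothelial markers, and p-values came from 100000 permutations within groups with Benjamini-Hochberg adjustment over the 40 pairs. Nkd1 followed the progenitor and fibroblast index, with r = 0.759 (adjusted p = 0.0036) and rho = 0.730 (adjusted p = 0.0106). Within males r was 0.709, within females 0.777, and without the 2 libraries farthest from the median 0.646. Cd44 followed the macrophage index, with r = 0.733 (adjusted p = 0.0148) and rho = 0.754 (adjusted p = 0.0084). Within males r was 0.741, within females 0.731, and without the 2 farthest libraries 0.709.

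With log2 CPM of the library total 5 relations passed: both of these, Nkd1 with the mesothelial index (r = 0.533, adjusted p = 0.0245), and Ccnd1 (r = 0.668, adjusted p = 0.0382) and Cd44 (r = 0.653, adjusted p = 0.0365) with the progenitor and fibroblast index. The relation to Axin2 was weak for Nkd1 (r = 0.0642, adjusted p = 0.861), and the most negative was that of Cd44 (r = -0.561, adjusted p = 0.0701). By rank, Znrf3 with the progenitor and fibroblast index (rho = -0.634) and Cd44 with the mesothelial index (rho = 0.554) reached an adjusted p of 0.0492 each, but the Znrf3 relation was near 0 within males (r = -0.0136) and -0.881 within females. All values in these relations share the scaling of their library. Endothelial and mural markers were not among the measures, and the part of other cell types in these relations was not tested.

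**Figure D4:**
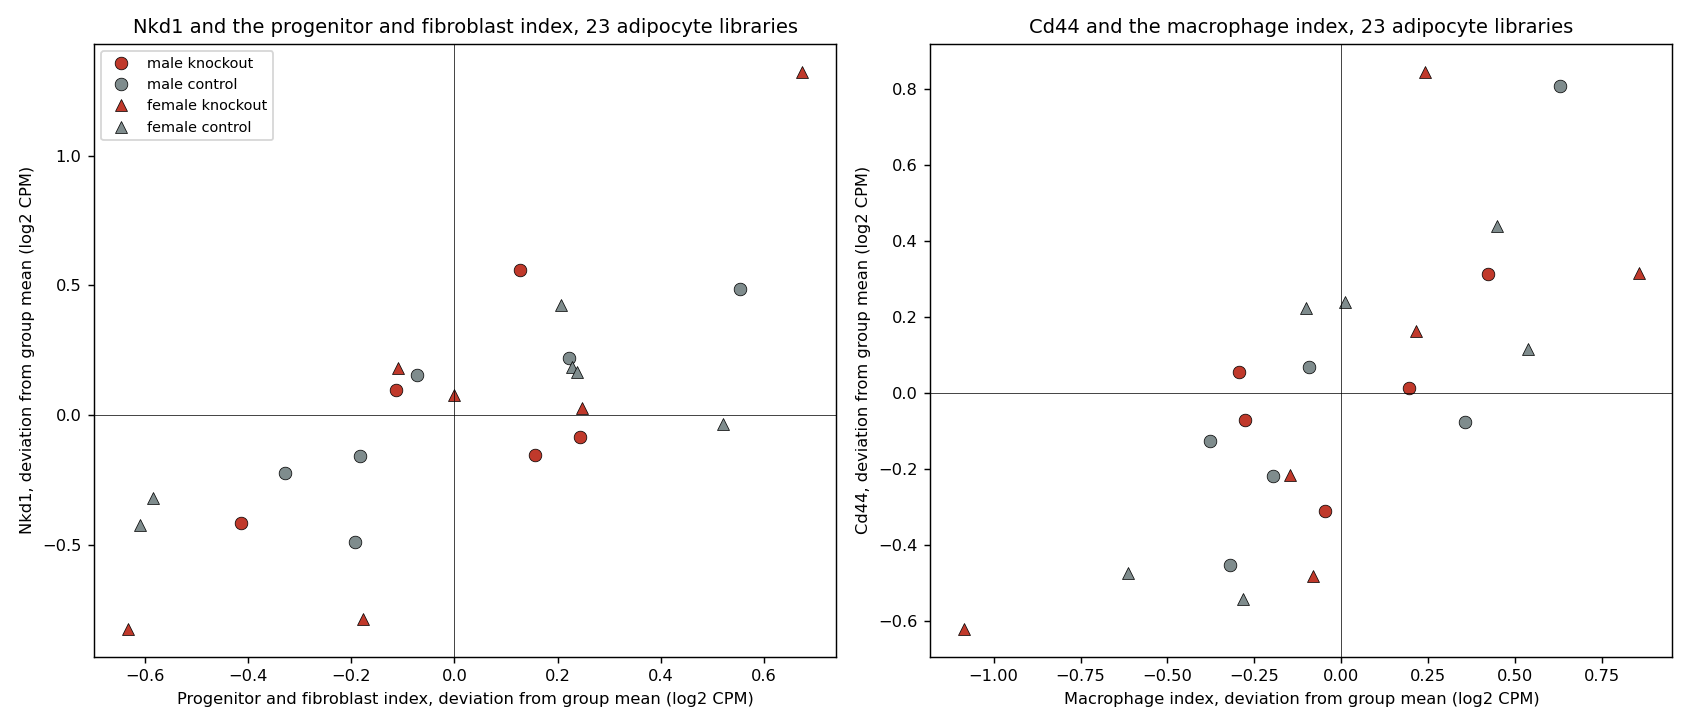
Deviations from the group mean on the log2 CPM scale in the 23 adipocyte libraries, for Nkd1 against the progenitor and fibroblast index (left, r = 0.759) and Cd44 against the macrophage index (right, r = 0.733). Circles are males, triangles females, red knockout-labelled and grey control, and the highest Nkd1 point is the female knockout-labelled library at 38.9 CPM.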

How the data were processed

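For 30 libraries the authors deposited unnormalised counts for each gene, which were used, and rlog values, which were not. The tools named in the submitters' processing notes are FastQC (0.12.1), STAR (version 2.7.11a) and DESeq2, with build mm39. The libraries are strand-specific, per the labels' protocols. Sources used here do not name the counting program, its strand setting or the gene annotation. The quasi-likelihood test came from edgeR 4.0.16, run under R 4.3.3 (TMM, filterByExpr with a minimum count of 10, robust), adjusted by Benjamini-Hochberg over all genes tested and called below 0.05. The 23 adipocyte libraries, the 7 SVC libraries and the 18 male libraries were each fitted together by group. Genes below the filter were compared by exact permutation of CPM in scipy 1.17.1. Per-library values are CPM of the library total, and relations between genes use TMM-scaled log2 CPM. TMM-scaled CPM of single genes over all 30 libraries was added after seeing the data, because it matches the scaling of the model, and is given where it changes an overlap. Alternatives were other scalings, no filter, DESeq2 1.42.0, limma 3.58.1 (voom), other libraries in the fit, a replicate block and leaving out each library. The fits were tested on simulated data.

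Libraries of both fractions whose deposited column names share a genotype and number were checked for pairing. In knockout-labelled libraries the deviations from the group mean correlated in all 3 pairs (0.194 to 0.254), so the blocked value is given where it changes a call. All 10 genes and Ctnnb1 were examined in every comparison where they passed the filter, but not every value is printed. From each pathway list up to 3 called genes, or the gene of smallest p, were eligible. Genes per list were chosen with earlier results of these data known, as were the 10 genes. Exon lengths come from GENCODE M21 (GRCm38), promoters from RefSeq. Intervals of pooled count ratios cover counting error only, and 0.5 was added before log2 in correlations.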

Additional observations from a re-analysis of the deposited data

Results flagged for a closer look

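In 49 groups of 4 to 6 libraries, 4 libraries lay farther from their group than Dixon's 95% value. Chance alone would flag about 1 in 20 groups of normally distributed values, a rate that does not hold for counts near 0. Nkd1 was 38.9 CPM in knockout-labelled female adipocyte replicate 4, with the next highest library at 16.1 CPM. Rnf43 was 0.0474 CPM in the same library and 0.0466 CPM in control female adipocyte replicate 6. Each was a single count where the other libraries of the group had 0, a case that the rule always flags. Tnfrsf19 was 0.391 CPM in knockout-labelled SVC replicate 3, with the next highest at 0.236 CPM, a matter of 8 counts against 5.

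The set depends on the scale. With TMM-scaled CPM, a scale looked at after the data were seen, the Tnfrsf19 library no longer stood apart, and Cd44 in control male adipocyte replicate 5 did, at 28.9 CPM with the next highest at 17.4 CPM. A difference in genotype effect between sexes or fractions was called for none of the 10 genes by edgeR, with Myc between sexes at an unadjusted p of 0.0116.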

How the results depend on the processing

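Over 75 results for single genes and 1470 alternative fits, 1419 kept their direction and side of the threshold, 39 changed sign (0 of them called), 11 lost a call and 1 gained one. The gain was Tnfrsf19 in SVC, so that the count of called genes there was 1 with DESeq2. Signs turned for Ccnd1 in SVC (0.0095 with RLE scaling, 0.0096 with DESeq2, 0.021 with all 18 male libraries, 0.090 with the replicate block), Cd44 in females (-0.015 with limma-voom, -0.010 with the replicate block) and Notum in SVC (-0.51 with limma-voom). With the replicate block they also turned for Znrf3 between fractions under the knockout label (0.16) and for the difference of effects between fractions in Nkd2 (-0.048) and Znrf3 (0.14). Leaving out each library gave ranges that cross 0. In male adipocytes these were Nkd1 (-0.083 to 0.20) and Apcdd1 (-0.14 to 0.062), and in females Znrf3 (-0.045 to 0.20) and Cd44 (-0.18 to 0.15). In SVC they were Nkd2 (-0.26 to 0.027), Notum (-0.12 to 0.98), Rnf43 (-0.84 to 0.37), Znrf3 (-0.27 to 0.15) and Ccnd1 (-0.44 to 0.20). Between sexes of the effect the range for Ccnd1 was -0.14 to 0.24. Between fractions of the effect the ranges were -0.067 to 0.53 for Nkd2, -0.57 to 0.092 for Ccnd1 and -0.47 to 0.20 for Cd44. For Znrf3 in SVC against adipocytes they were -0.23 to 0.030 under the knockout label and -0.065 to 0.31 in controls. Among genes below the filter in females, differences in CPM ranged from -0.0102 to 0.0177 for Notum and from -0.00776 to 0.00790 for Rnf43, and the Rnf43 difference was -0.000337 with TMM-scaled CPM. With log2 CPM of the library total, 5 relations passed in place of 2, and r turned to 0.104 for Nkd1 with macrophages and to -0.0298 for Myc with Axin2. In each case the cause was not tested.

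Apcdd1 in female against male controls lost its call without the filter (0.33, adjusted p = 0.0649), and its adjusted p ranged from 0.0154 to 0.104 over all alternatives. Nkd1 in knockout-labelled SVC against adipocytes lost its call with the block (-0.51). Counts of called genes ran from 4 to 332 in males on leaving out 1 library (332 without knockout-labelled replicate 5) and were 159 with DESeq2, against 10. In females they ran from 32 to 89, were 26 with the 2 groups alone and 206 with DESeq2, against 67. In the mean effect they ran from 60 to 246, were 350 with DESeq2 and 180 with the block, against 108. In SVC they were 76 with DESeq2, against 0. In the sex difference they were 23 with DESeq2, against 2, and in the fraction difference 14 with DESeq2, against 0. Within sexes and within SVC, and for control fractions, same-numbered libraries did not all correlate (male adipocytes -0.164 to 0.173, female adipocytes -0.06 to 0.537, SVC -0.275 to 0.353, control fractions -0.0122 to 0.202), so the numbers were not taken as pairs. Female adipocyte libraries numbered 1 to 6 correlated across labels at 0.265, 0.112, -0.06, 0.482, 0.537 and 0.368, several above the range of the knockout-labelled fractions. Some of them may therefore be paired. The block changed no other call of the 10 genes. Of 17 results for other named genes and 319 alternative fits, 297 did not change, 17 lost the Cdk6 call in the mean effect (-0.72 with limma-voom, and -0.83 to -0.63 in the 16 leave-outs that lost it), and 4 gained one: Axin2 in the mean effect and Lyve1 in females with DESeq2, Lyve1 without knockout-labelled female replicate 6 and Spp1 without knockout-labelled male replicate 5. Ctnnb1 in SVC ranged from -0.12 to 0.24 on leaving out 1 library. Genes with few counts, such as Rnf43 and Notum in adipocytes, allow no statement about small changes.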
